A study of Mus musculus with 6 samples.

Results

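The line labelled VE+N, which carries both cadherins, was set against the lines labelled N (N-cadherin) and VE (VE-cadherin), and the genes described are those for which it lay outside the range of both. A gene was placed outside that range where VE+N differed from N and from VE in the same direction, each with a Benjamini-Hochberg adjusted p below 0.05 in limma. This held for 1126 of 19936 measured genes (5.65%), 598 above both lines and 528 below both.

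All 3 are mouse endothelial lines derived from embryonic stem cells, with 2 arrays a line: the 2 VE+N arrays were compared with the 4 N and VE arrays. The labels give expression of the named cadherin or cadherins as the genotype of each line and name no further allele, agent or treatment that sets the lines apart, and how the lines were made is not given in the sources used here. All lines were cultured in 20% serum, kept confluent for 72 h and starved of serum for 18 to 20 h, with 1% albumin in its place. The titles speak of biological replicates and the design text of separate RNA extractions, but no source used here states separate cultures. Each cadherin state is 1 line, so the p-values cover only the spread between its arrays, which may be technical, and the cadherin and any other difference between the lines cannot be told apart.

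N-cadherin and VE-cadherin are single-pass membrane proteins that bind the same kind of molecule on the neighbouring cell through calcium-dependent extracellular repeats and anchor to actin through beta-catenin, plakoglobin and alpha-catenin. VE-cadherin is found almost only in endothelium, where it gathers at cell borders and restrains growth factor receptors in confluent monolayers. N-cadherin is shared with neurons, muscle and mesenchymal cells, is often spread over the endothelial surface, and takes part in contacts between endothelial cells and pericytes. Endothelial cells normally hold both.

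Neither cadherin transcript lay outside the range. Cdh2, the N-cadherin gene, measured 7.66 and 7.67 on the N arrays, 5.80 and 5.93 on the VE arrays and 6.69 and 6.70 on the VE+N arrays (all levels are log2 RMA signals). The VE+N arrays fell between the other lines without overlap, and the contrast of VE+N with the mean of the N and VE line means was −0.07 ± 0.0859 (SE), adjusted p = 0.661. Cdh5, the VE-cadherin gene, measured 7.26 and 7.30 in N, 7.05 and 6.83 in VE and 7.05 and 7.16 in VE+N. Those arrays overlapped between VE and VE+N, with a contrast of −0.01 ± 0.0977 (adjusted p = 0.979) and differences of −0.17 from N (adjusted p = 0.366) and 0.16 from VE (adjusted p = 0.462). The single Cdh5 probe set thus did not separate the lines labelled with and without VE-cadherin, and every direction below rests on the labels.

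Replicates of VE+N differed from each other more than those of the other lines: the SD of the gene-by-gene difference between its arrays was 0.244, against 0.185 in N and 0.196 in VE. The contrast of VE+N with the mean of the single-cadherin lines called 1688 genes higher (8.47% of all) and 1640 lower (8.23%). All 1126 genes outside the range were among these 3328, as is nearly fixed by a rule that uses the same differences. The other 2202 had VE+N apart from 1 line only, between both, or apart from neither when each was tested singly.

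VE+N lay above both lines at 3% of genes and below both at 2.65%. Of the 19936 genes, 92 had VE+N between N and VE and apart from each, 2584 had it apart from N only, 802 from VE only and 15332 from neither. The same rule applied to the other lines placed N above both others at 938 genes (4.71%) and below both at 951 (4.77%), and placed VE above both at 623 (3.12%) and below both at 152 (0.762%). VE+N therefore stood outside the other 2 lines at fewer genes than N and at more than VE, by count; these comparisons share arrays and their difference was not tested.

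The smaller of the differences from N and from VE, called the gap here, had a median of 0.60 log2 among the genes above both (range 0.35 to 5.13) and −0.65 among those below (−0.33 to −4.29). It passed 1.5-fold in 321 genes above and 319 below, 2-fold in 91 and 111, 4-fold in 11 and 21, and 8-fold in 3 and 6. In all 1126 genes both VE+N arrays lay beyond the 4 other arrays, which the rule that selected them makes nearly certain. With no test at all, 3249 genes had both VE+N arrays above the other 4 and 2470 had both below. Of the genes above both, 242 were also higher in VE than in N, 8 were higher in N and 348 showed no called difference between N and VE. Below both, the corresponding counts were 96, 144 and 288.

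The balance between the directions moved with median centring but hardly with repeated quantile normalization. Genes above both made up 53.1% of those outside the range, and 64.4% after each array was centred on its own median, which moved the median contrast over all genes from 0.008 to 0.042 log2. Repeated quantile normalization gave 52.2% and a median contrast of 0.008. With VE replicate 1 left out, 241 genes lay above both and 293 below. With VE replicate 2 left out, the counts were 225 and 299. Leaving out VE+N replicate 2 gave 301 above and took the contrast with the mean from 3328 to 2098 genes. The count of genes with N outside both others (1889) became 1055 or 1062 when either N array was left out and 1126 or 1107 when VE replicate 1 or 2 was, and that for VE (775) became 438 or 426 without VE replicate 1 or 2. Of the 208 genes outside the range that belong to a gene list below or are named in the text, 110 kept their call whichever of the 6 arrays was left out, 98 lost it in at least 1 case and 10 lost it in all 6 cases. The 30 genes with the largest gaps are among the 110.

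**Figure D1:**
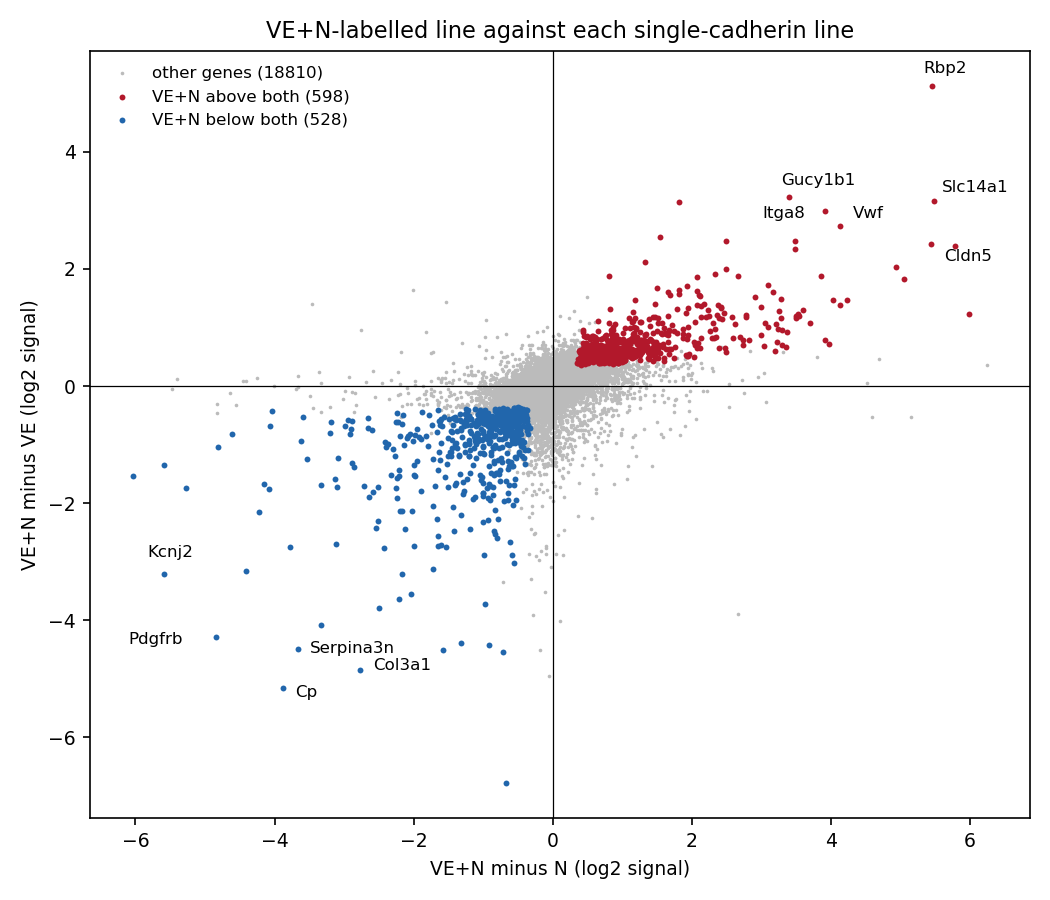
Each point is 1 of 19936 genes, with the log2 difference of VE+N from N on the horizontal axis and from VE on the vertical axis. The 598 red genes lie above both lines and the 528 blue genes below both, with Rbp2 at the upper right and Pdgfrb, Cp and Serpina3n at the lower left.

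The genes that stood farthest above both lines included a retinol-binding protein, both subunits of a nitric oxide receptor, a urea transporter, von Willebrand factor and the endothelial claudin. The 15 largest gaps ran from 1.87 to 5.13 log2, at least 3.66-fold against the nearer line. These genes were chosen by size, so the values describe them. Rbp2 encodes a cellular retinol-binding protein best known from intestine. It measured 4.78 and 4.94 in N, 5.14 and 5.22 in VE and 10.31 on both VE+N arrays. The single-cadherin lines sat near or under their median gene (5.48 in N, 5.58 in VE), and the contrast was 5.29 ± 0.0901 (adjusted p = 2.07e-07). The retinoic acid receptor gene Rarb was also above both, at 5.10 and 4.80 in N, 7.44 and 7.41 in VE and 8.03 and 8.33 in VE+N, with a step from VE of 0.75. Its call was lost when either VE array or VE+N replicate 2 was left out.

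Soluble guanylate cyclase is the enzyme that nitric oxide switches on to make cyclic GMP, and it works as a pair of an alpha and a beta subunit. The beta subunit gene Gucy1b1 measured 3.95 and 3.64 in N, 3.90 and 4.04 in VE and 7.15 and 7.24 in VE+N. The alpha subunit gene Gucy1a1 measured 3.98 and 4.09, 4.10 and 4.02, and 6.49 and 6.57 in the same order. Both single-cadherin lines overlapped each other and lay well under their median gene, while VE+N stood apart by a contrast of 3.31 ± 0.112 for Gucy1b1 and 2.49 ± 0.0881 for Gucy1a1 (adjusted p = 2.23e-06 and 2.49e-06). The alternative alpha subunit gene Gucy1a2, examined after these values were seen, did not pass, with a contrast of −0.04 ± 0.113 (adjusted p = 0.881).

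Other genes of cyclic GMP signalling were likewise looked up afterwards. The natriuretic peptide receptor genes Npr1 and Npr2, whose products are membrane guanylate cyclases, were above both lines, with gaps of 0.48 and 0.66, Npr1 only while both VE arrays and VE+N replicate 2 were kept. Npr2 measured 5.71 and 5.68 in N, 8.42 and 8.37 in VE and 9.04 and 9.07 in VE+N. The endothelial nitric oxide synthase gene Nos3 did not lie outside, at 10.53 and 10.51, 9.63 and 9.50, and 9.75 and 9.67, with VE+N below N and not called apart from VE. The cyclic GMP-dependent kinase gene Prkg1 had the same placing, −0.81 from N and 0.07 from VE.

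**Figure D2:**
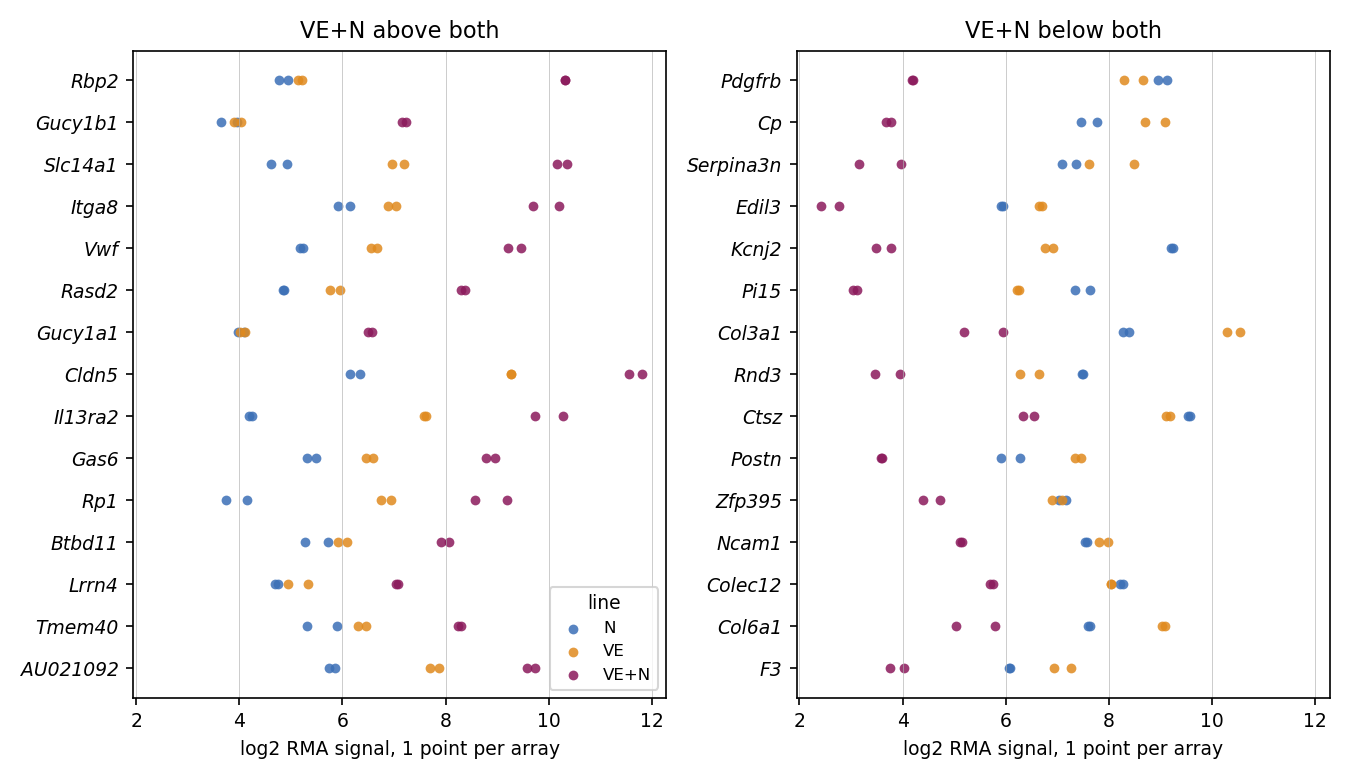
Each point is the log2 RMA signal of 1 array, for the 15 genes with the largest gaps above both single-cadherin lines (left) and below both (right), with N in blue, VE in orange and VE+N in purple. In all 30 genes both VE+N arrays lie beyond the 4 other arrays, which follows from choosing genes by their gap.

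Endothelial identity genes that stood outside the range were nearly all on the upper side: 11 of 42 measured members lay above both lines (26.2%, against 3% of all genes) and 1 below both. The share of all genes includes dim genes, while this list was bright. With the dimmest 50% of genes left out, 949 genes lay above both and 652 below. More genes were called among fewer tested, so both shares among brighter genes exceed 3% and 2.65%. Against such genes the excess of this list is smaller than 26.2% against 3%. The median contrast of the 42 members was 0.29, against 0.008 over all genes, with 20 members called higher and 2 lower in that contrast. With VE replicate 1 left out the 11 became 4, with VE replicate 2 left out 5 and with VE+N replicate 2 left out 7. Vwf, Cldn5, Mmrn2 and Ptprb kept their calls whichever array was left out. Von Willebrand factor (Vwf) carries platelets to the injured wall and is stored in endothelial granules. It measured 5.24 and 5.18 in N, 6.56 and 6.66 in VE and 9.22 and 9.46 in VE+N. The lines formed 3 separate steps, with VE+N highest by a contrast of 3.43 ± 0.1 (adjusted p = 1.32e-06).

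Cldn5, the main claudin of endothelial tight junctions, measured 6.14 and 6.34 in N, 9.26 on both VE arrays and 11.55 and 11.81 in VE+N. VE already stood far above N, and VE+N stood a further 2.42 ± 0.125 log2 above VE. Mmrn2 codes for an endothelial matrix glycoprotein and measured 5.68 and 5.42, 8.13 and 7.84, and 8.89 and 8.94. The VE-cadherin phosphatase gene Ptprb followed the same order at 9.63 and 9.54, 10.84 and 10.95, and 11.62 and 11.82. Its step from VE to VE+N was 0.83.

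Smaller shifts of 0.4 to 0.7 log2 against the nearer line were measured in genes that were bright in every line. Kdr, the main VEGF receptor, measured 11.18 and 11.12 in N, 11.14 and 11.25 in VE and 11.55 and 11.80 in VE+N. The transcription factor gene Erg measured 10.78 and 10.84, 10.88 and 10.99, and 11.32 and 11.52. For both, N and VE sat close together and VE+N above them, by 0.53 and 0.48 for Kdr and 0.61 and 0.48 for Erg against N and VE. Both calls were lost with any array other than VE+N replicate 1 left out. Eng (a co-receptor for TGF-beta family ligands), Sox7, Klf2, Calcrl and the adhesion receptor gene Adgrl4 were the other members above both. Each lost its call with VE replicate 1 left out, and Eng, Sox7, Klf2 and Calcrl also with VE replicate 2 left out.

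The identity member below both was Fli1, an ETS factor related to Erg, at 10.45 on both N arrays, 10.40 and 10.36 in VE and 9.95 and 10.02 in VE+N. That call was lost whichever of the 6 arrays was left out. Pecam1 and Cdh5, which define endothelium, did not lie outside, with contrasts of 0.03 (adjusted p = 0.884) and −0.01 (adjusted p = 0.979), and neither did Tek, Tie1 or Emcn. The 42 members had median signals of 9.41 to 9.47 on the N arrays, 9.38 to 9.56 on the VE arrays and 9.73 to 9.82 on the VE+N arrays, far above the median gene in each line, so endothelial markers were bright in all 3.

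Cell junction genes lay outside in small numbers, beside 3% of all genes above both and 2.65% below. Of 29 tight junction genes 2 lay above both (6.90%), Cldn5 and the cingulin-like scaffold gene Cgnl1 (contrast 0.77 ± 0.0886), and 0 below. Cgnl1 was not called without VE replicate 1. Of 28 adherens junction genes 0 lay above both and 1 below (3.57%). That gene was plakoglobin (Jup), at 10.95 and 10.88 in N, 10.75 and 10.54 in VE and 10.26 and 10.11 in VE+N. Jup binds the tail of both cadherins. Its call was lost with median centring, with array weights and when any 1 of the 6 arrays was left out. The genes of beta-catenin (Ctnnb1), p120-catenin (Ctnnd1) and alpha-catenin (Ctnna1) had contrasts of −0.09, 0.17 and 0.33 that did not pass, though Ctnna1 was above N on its own. Of 17 gap junction genes 0 lay outside, and Gja1, the gene of connexin 43, had a contrast of −2.64 with VE+N far below N and near VE.

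A urea channel, a receptor kinase ligand and an integrin subunit were also among the 15 largest gaps above both. Slc14a1, a urea channel, measured 4.93 and 4.61 in N, 6.97 and 7.20 in VE and 10.15 and 10.35 in VE+N, a contrast of 4.32 ± 0.126. Gas6, the ligand of the receptor kinase Axl, measured 5.30 and 5.48, 6.60 and 6.46, and 8.79 and 8.96. Axl itself was below both, at 7.54 and 7.71, 8.98 and 9.25, and 6.97 and 6.71. Ligand and receptor thus lay on opposite sides of the single-cadherin range.

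Itga8, the alpha subunit of a receptor for nephronectin and fibronectin, measured 5.91 and 6.15 in N, 6.89 and 7.04 in VE and 9.70 and 10.20 in VE+N. The laminin receptor subunit gene Itga7 was above both as well, by 1.59 from N and 0.98 from VE. Itgb5, Itga3 and Itga9 were below both, Itga9 with a call lost when any array but VE+N replicate 2 was left out. Itgb5 pairs with integrin alpha-v and hardly differed between the single-cadherin lines, at 7.79 and 7.84 in N and 7.76 and 7.81 in VE, against 5.59 and 5.72 in VE+N. Of 25 integrin genes, 2 lay above both (8%, against 3% of all genes) and 3 below (12%, against 2.65%).

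Remaining genes of the upper 15 were the small GTPase gene Rasd2 (contrast 2.98 ± 0.0919), the decoy receptor gene Il13ra2 (4.09 ± 0.141), the photoreceptor axoneme gene Rp1 (3.48 ± 0.187), Btbd11 (2.25 ± 0.135), Lrrn4 (2.13 ± 0.117), Tmem40 (2.28 ± 0.156) and AU021092 (2.86 ± 0.0972). For 4 of the 15 genes both single-cadherin lines lay under their median gene, and over all genes above both this held for 98. Signal over background was not examined, so where the low side is dim the size of a difference is approximate.

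The genes farthest below both lines were led by the pericyte growth factor receptor Pdgfrb, the acute phase genes Cp and Serpina3n, the potassium channel gene Kcnj2 and genes of the interstitial matrix. Their 15 largest gaps ran from −2.17 to −4.29 log2, at least 4.51-fold under the nearer line. Pdgfrb measured 8.94 and 9.13 in N, 8.30 and 8.67 in VE and 4.19 and 4.18 in VE+N, a contrast of −4.57 ± 0.121 (adjusted p = 1.32e-06). Both single-cadherin lines carried it at a level well above their median gene, and VE+N was under its own (5.49). In 12 of these 15 genes VE+N lay under its median gene, as it did in 204 of the 528 genes below both. Fewer cells of a type and less RNA per cell cannot be told apart in such bulk RNA.

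Ceruloplasmin (Cp), a copper-carrying ferroxidase, measured 7.46 and 7.77 in N, 9.08 and 8.70 in VE and 3.68 and 3.77 in VE+N. Serpina3n, a secreted protease inhibitor, measured 7.08 and 7.37, 8.49 and 7.62, and 3.97 and 3.15, and its replicates spread more widely in VE and VE+N than in N. Kcnj2, an inward rectifier channel, measured 9.20 and 9.24, 6.92 and 6.75, and 3.48 and 3.77. For Cp and Serpina3n the VE line was highest, and for Kcnj2 the N line, but VE+N was lowest in each. Tissue factor (F3), which starts coagulation, measured 6.07 and 6.06, 6.94 and 7.26, and 3.75 and 4.03, so that VE+N had the most Vwf and the least F3 signal.

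Further genes with the largest gaps below both were Edil3, an integrin-binding matrix gene (contrast −3.71 ± 0.112), Pi15 (−3.78 ± 0.105), Rnd3 (−3.26 ± 0.155), the lysosomal protease gene Ctsz (−2.90 ± 0.096), Zfp395 (−2.49 ± 0.119), the adhesion gene Ncam1 (−2.60 ± 0.0899) and the scavenger receptor gene Colec12 (−2.41 ± 0.0837). The largest adjusted p of the contrast among the 30 genes named for their gaps was 5.38e-05. Of these 30, 1 has several probe sets (Zfp395), as have 63 of the 1126, and the brightest was used.

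**Figure D3:**
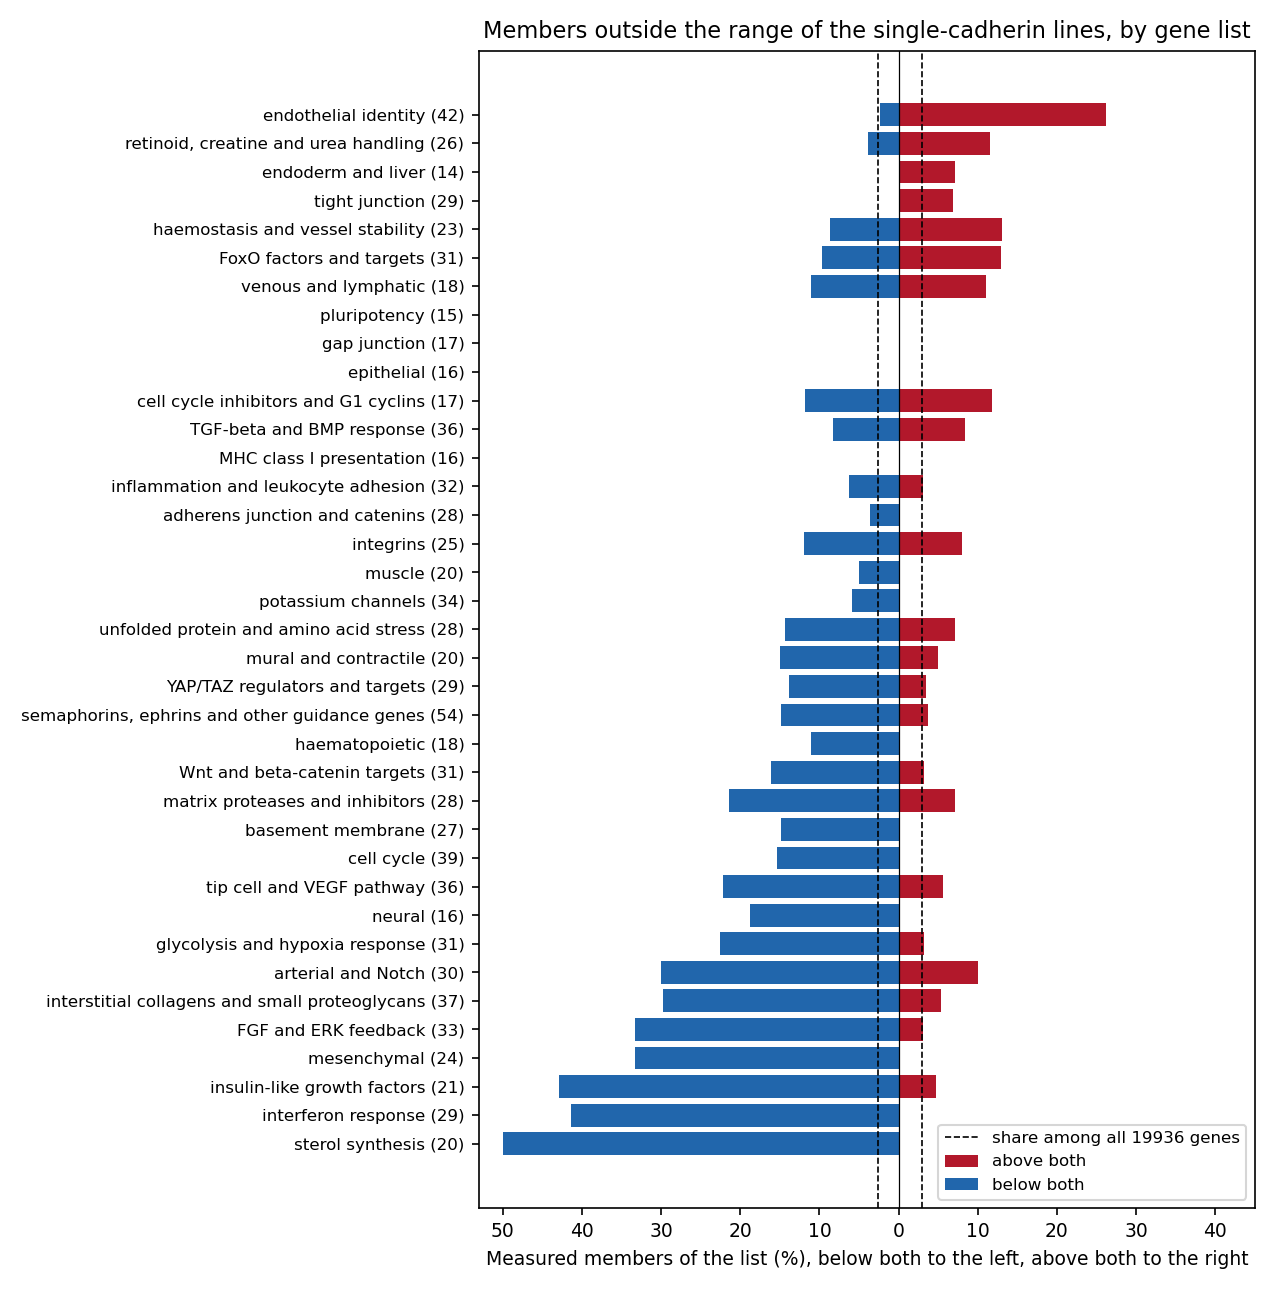
Bars give the percent of measured members of each of 37 gene lists (number measured in brackets) that lay below both single-cadherin lines (left, blue) or above both (right, red), and dashed lines give the share over all 19936 genes, 2.65% and 3%. Endothelial identity reaches 26.2% above, and sterol synthesis 50%, insulin-like growth factors 42.9% and interferon response 41.4% below.

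Over all 37 lists, which hold 902 measured genes, 43 genes lay above both lines and 136 below. Beside the count of any list stand the shares over all genes, 3% above both and 2.65% below. Those shares include dim genes and are not matched to the brightness of a list. The other 947 genes outside the range, 555 above and 392 below, were in no list, and 28 of the 1126 are predicted genes, clones or small RNAs that were not ranked.

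Some matrix genes of connective tissue were among the lowest in VE+N relative to the other lines. Of 37 interstitial collagens and small proteoglycans, 11 lay below both (29.7%, against 2.65% of all genes) and 2 above, with a median contrast of −0.31. The median difference of the list was −0.08 from N and −0.58 from VE. Summed linear signal of the 37 genes was 1934 to 1936 on the N arrays and 8330 to 9000 on the VE arrays. On the VE+N arrays it was 2604 to 2689, between the other lines and nearer to N. Col3a1, a fibrillar collagen of elastic tissue, measured 8.28 and 8.39 in N, 10.29 and 10.53 in VE and 5.94 and 5.19 in VE+N. Postn, a matricellular protein, measured 5.91 and 6.28, 7.33 and 7.45, and 3.58 and 3.61. Both were highest in VE and lowest in VE+N, with N between. Col6a1 and Col6a2, chains of the beaded-filament collagen, were below both as well, with differences of −2.21 and −1.60 from N and −3.64 and −2.72 from VE.

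Larger contrasts between the single-cadherin lines were seen in dermatopontin (Dpt) and decorin (Dcn), which bind collagen fibrils. Dpt measured 3.74 and 3.45 in N, 9.63 and 9.78 in VE and 2.94 and 2.90 in VE+N. The N and VE+N signals were both far under the median gene, so the difference of −0.67 from N is one between dim signals, and the call was lost with N replicate 1 left out. Thbs1 and Tnc, matricellular genes, were below both, with contrasts of −2.36 and −1.61. The members above both were elastin (Eln), with a gap of 0.74, and Prelp, a leucine-rich proteoglycan that anchors basement membranes, at 5.22 and 5.02, 8.41 and 8.26, and 10.20 and 10.15. Eln lost its call with either VE array or VE+N replicate 2 left out. Col12a1, Col8a1 and Aspn completed the members below both, of which Col8a1 lost its call whichever array was left out.

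Of 27 basement membrane genes 4 lay below both and 0 above. The laminin beta chain gene Lamb1 measured 10.15 and 10.12 in N, 9.48 on both VE arrays and 7.99 and 8.28 in VE+N. Nid2, a linker of laminin and collagen IV, hardly differed between N (9.65 and 9.57) and VE (9.65 and 9.56) and measured 8.42 and 8.41 in VE+N. Fbln2 and the agrin gene Agrn were the others, with gaps of −1.34 and −0.73. Of 28 matrix proteases and inhibitors 6 lay below both and 2 above, and 2 below when VE replicate 1 or VE+N replicate 2 was left out. Mmp2 measured 7.20 and 7.04, 7.94 and 8.25, and 6.23 and 6.14. Reck, a membrane-bound inhibitor of matrix proteases, was above both, by 1.31 from N and 0.79 from VE, though not without VE replicate 2.

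Some markers of mesenchymal cells were below both lines too. Col3a1, Postn and Dcn belong to this list and to the matrix list, so the lists are not independent. Of 24 such markers 8 lay below both and 0 above, with a median contrast of −0.75, 15 called lower and 1 higher. Their median difference was −0.30 from N and −1.07 from VE, so VE+N lay nearer to N than to VE. The summed linear signal of the 24 markers was 11467 to 11647 on the N arrays, 14375 to 15295 on the VE arrays and 9312 to 9450 on the VE+N arrays, and RMA signals have no true zero. Besides Pdgfrb, Col3a1, Postn and Dcn, the 8 were the transcription factor genes Prrx1 and Twist1, the fibroblast protease gene Fap and fibronectin (Fn1). Prrx1 measured 5.93 and 5.94 in N, 6.09 and 6.42 in VE and 4.35 and 4.08 in VE+N. Twist1 spread widely between the VE+N arrays (5.64 and 4.21) and lost its call with any of the 4 single-cadherin arrays left out, and Fap lost it with VE replicate 1 or VE+N replicate 2 left out. Vim had a contrast of −0.09 and Zeb1 of −0.13, neither called. Of the 24 markers, Col1a1 and Pdgfra were high in VE only, with VE+N and N not called apart. The part of such cells in the matrix result was not tested.

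Of 20 mural and contractile genes 3 lay below both, Pdgfrb, Notch3 and Acta2, and 1 above, Itga8. Acta2, the smooth muscle actin gene, measured 7.24 and 6.98 in N, 5.82 and 6.25 in VE and 4.87 and 4.82 in VE+N. The pericyte marker gene Rgs5 had a contrast of −0.08, Cnn1 of −0.09 and Myh11 of 0.05, and none of these passed. Median signals of the list were 4.86 to 4.98 in N, 4.70 to 4.78 in VE and 4.54 to 4.66 in VE+N, all under the median gene.

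Feedback genes of growth factor signalling were well represented below both lines. FGF and other growth factors signal through ERK, which switches on its own dampers, the Sprouty, Spred and dual-specificity phosphatase genes, and the ETS factors Etv1, Etv4 and Etv5. Of 33 FGF and ERK feedback genes 11 lay below both lines (33.3%) and 1 above, with a median contrast of −0.19, and the count below stayed between 10 and 12 when any 1 array was left out. Etv1 measured 7.98 and 8.18 in N, 6.93 and 7.20 in VE and 5.38 and 5.34 in VE+N. Dusp6, the phosphatase that acts on ERK, measured 10.76 and 10.79, 10.46 and 10.14, and 8.71 and 8.86. In both, VE was below N (differences of −1.01 and −0.48) and VE+N was lowest, with contrasts of −2.21 ± 0.109 and −1.75 ± 0.112 (adjusted p = 1.06e-05 and 3.95e-05).

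Spry4 measured 7.21 and 7.36 in N, 6.40 and 6.19 in VE and 5.49 and 5.30 in VE+N. Spry1 and Spry2 had gaps of −0.88 and −0.69, and the 3 Spred genes, Spred1, Spred2 and Spred3, of −0.60, −0.50 and −0.63. Spred2 lost its call with either N array left out. The immediate early gene Egr1 measured 5.97 and 6.10, 6.71 on both VE arrays, and 5.37 and 5.18. Etv5 and Dusp4 completed the members below both. Il17rd, a membrane inhibitor of FGF signalling also called Sef, was the member above both, at 5.97 and 5.83, 6.72 and 6.50, and 7.51 and 7.64. Among the receptors Fgfr1, Fgfr2, Fgfr3 and Fgfr4 none lay outside.

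Several arterial and tip cell genes were below both lines. Notch signalling between endothelial cells sets arterial fate and limits sprouting tip cells. Of 30 arterial and Notch genes, 9 lay below both and 3 above, with a median contrast of −0.30. The ligand gene Dll4 measured 9.21 and 9.18 in N, 7.92 and 7.51 in VE and 6.28 and 6.38 in VE+N. The Notch target Nrarp followed at 9.26 and 9.29, 8.07 and 7.78, and 6.92 and 6.84. Both descended from N through VE to VE+N. Notch3 instead was alike in N (6.78 and 6.83) and VE (7.06 and 7.19) and fell to 4.76 and 4.61 in VE+N.

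Hey1, a Notch target, and Mfng, which modifies Notch receptors, lay below both with gaps of −0.82 and −0.61, as did Notch4 (−0.53) and the arterial ephrin gene Efnb2 (−0.62). Mfng and Notch4 lost their calls with either VE array left out, Mfng also with VE+N replicate 1 and Notch4 with VE+N replicate 2. Cxcl12 and Igfbp3 were the others. The arterial members above both were Dll1 (gap 0.66), Nrp1 (0.58) and Epas1 (0.50). With VE replicate 1 left out 1 of them was called, with VE replicate 2 or VE+N replicate 2 left out 0, while the count below stayed between 7 and 9. On the venous side, Nr2f2, the factor that holds venous identity, measured 10.45 and 10.43, 10.44 and 10.51, and 11.11 and 11.22. The venous receptor gene Ephb4 was higher too, by 0.64 from N and 0.58 from VE, though not with VE replicate 2 left out. Vcam1 and Itga9 were the members of that list below both, Vcam1 not when either N array or either VE+N array was left out, which made 2 above and 2 below of 18.

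Of 36 tip cell and VEGF pathway genes 8 lay below both and 2 above (Kdr and Nrp1), with 5 below when VE replicate 1, VE replicate 2 or VE+N replicate 2 was left out. Robo1, a Slit receptor, measured 9.64 and 9.61 in N, 5.42 and 5.33 in VE and 4.03 and 4.04 in VE+N. The transcription factor gene Ets1 measured 10.33 and 10.36, 9.84 and 9.83, and 9.16 and 9.18. Pdgfb, the ligand that draws pericytes and binds the product of Pdgfrb, measured 7.77 and 7.86, 7.36 and 7.42, and 6.96 and 6.81. Ligand and receptor of that pair were thus both below the single-cadherin lines, the ligand not when either VE array or VE+N replicate 2 was left out. Vegfb and Kcne3 were further members below both whose calls each needed both VE arrays. Of 54 semaphorin, ephrin and other guidance genes, 8 were below both and 2 above, and 4 below with either VE array left out.

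The insulin-like growth factor list holds ligands, receptors and binding proteins, and also other genes such as Irs1, Stc1 and Igf2bp1. Of its 21 measured genes, 9 lay below both (42.9%), 1 above, the ligand Igf1, and 11 were not outside. The median contrast was −0.37, and 5 lay below with N replicate 2 left out. Igf1 measured 9.44 and 9.62 in N, 10.46 and 10.58 in VE and 11.07 and 11.08 in VE+N, a call that needed both VE arrays and VE+N replicate 2. Its receptor gene Igf1r measured 5.39 and 5.31, 6.10 and 6.35, and 4.50 and 4.49. The adaptor gene Irs1 had the same order, with a gap of −0.55. Igf2 and its clearance receptor gene Igf2r lay below both with gaps of −0.47 and −0.58, and each lost its call in 5 of the 6 cases with an array left out. Igf1r kept its call in all 6 cases, and Irs1 lost it with N replicate 2 left out.

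Igfbp5, which binds both ligands, measured 12.23 and 12.24 in N, 7.88 and 7.59 in VE and 6.17 and 6.23 in VE+N. Igfbp3 measured 10.39 and 10.52, 8.90 and 7.86, and 6.25 and 6.23. In these binding protein genes N was highest by a wide margin. Igfbp7 differed in that VE was highest, at 6.40 and 6.72, with VE+N at 5.07 and 4.80, and it lost its call with N replicate 2 or VE+N replicate 2 left out. Stc1 and Igf2bp1 were the other members below both.

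Interferon response genes were lower in VE+N with no infection or interferon named in the labels. Type I interferons switch on antiviral genes through factors that bind an element in their promoters. Of 29 measured genes, 12 lay below both lines (41.4%) and 0 above, and the median contrast was −0.71, with 19 called lower and 2 higher. With VE replicate 1 left out the 12 became 4, and with VE replicate 2 left out 6. The promoters of 4 members below both are printed because they hold the letters of that element within 150 bases of the start, and the capitals mark them.
Rsad2, chr12:26456453-26456602, minus strand: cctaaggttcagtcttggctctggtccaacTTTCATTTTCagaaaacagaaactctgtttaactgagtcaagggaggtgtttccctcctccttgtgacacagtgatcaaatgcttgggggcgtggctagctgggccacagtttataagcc
Ifit1, chr19:34640739-34640888, plus strand: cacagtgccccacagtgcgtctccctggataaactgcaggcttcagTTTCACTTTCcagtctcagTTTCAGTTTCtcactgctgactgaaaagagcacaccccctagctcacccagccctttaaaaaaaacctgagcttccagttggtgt
Gbp3, chr3:142559894-142560043, plus strand: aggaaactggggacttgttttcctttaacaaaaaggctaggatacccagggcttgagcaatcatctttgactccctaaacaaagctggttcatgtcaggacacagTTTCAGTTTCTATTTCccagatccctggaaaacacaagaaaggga
Irgm1, chr11:48871421-48871570, minus strand: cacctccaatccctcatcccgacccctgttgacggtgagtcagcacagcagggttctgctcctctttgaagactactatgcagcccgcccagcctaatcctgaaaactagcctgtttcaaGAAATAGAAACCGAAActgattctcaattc

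These sequences are from RefSeq on GRCm38.p6, each the 150 bases before the gene's start read 5′ to 3′ along the gene. The letters searched were GAAANNGAAA on either strand, where N is any base, in windows from 250 bases before to 50 bases after the start, and matches could overlap each other. Of the 21 interferon genes with a window, 12 held a match, 5 of the 9 below both and 7 of the other 12. Over all genes with a window, 3.99% of 27025 held one. The match is common in this list on either side of the threshold and describes letters, not binding.

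Rsad2, which codes for the antiviral enzyme viperin, measured 9.68 and 9.90 in N, 9.01 and 9.02 in VE and 7.05 and 7.35 in VE+N. Its contrast was −2.20 ± 0.115 (adjusted p = 1.44e-05). Oasl2 measured 8.26 and 8.57, 8.11 and 7.82, and 6.28 and 6.59. Usp18, which switches interferon signalling off, measured 8.39 and 8.55, 8.06 and 8.11, and 6.80 and 7.24. The VE+N arrays stood under all 4 others in these genes. N and VE were not called apart in Oasl2 and Usp18, and in Rsad2 VE was below N (difference −0.77, adjusted p = 0.00573). Gbp3, Rtp4, Mx2, Isg20, Oasl1, Ifit1, Ifit2, Irgm1 and Ifih1 were the remaining members below both. Of these 9, Isg20 kept its call whichever array was left out, as did Rsad2, Oasl2 and Usp18. The other 8 lost theirs with VE replicate 1 left out, and 6 of them also with VE replicate 2 left out. Ifit1 and Ifih1 lost theirs in 5 of the 6 cases.

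The transcription factor genes of the pathway did not lie outside. Irf9 had a contrast of −0.44 (adjusted p = 0.0462) and was called apart from N but not from VE, and Stat2 (−0.19) and Irf7 (0.06) did not pass. Irf1 and Iigp1, which respond strongly to interferon gamma, had contrasts of 0.45 and 0.76 in the other direction, with VE+N above N and not apart from VE. Of 16 MHC class I presentation genes 0 lay above both and 0 below, with a median contrast of −0.13.

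Many genes of cholesterol synthesis were lower in VE+N than in either line. The factor SREBP-2 (Srebf2) drives nearly all enzymes of this pathway when membrane sterol is short. Of 20 measured genes 10 lay below both (50%) and 0 above, with a median contrast of −0.65, and 15 were called lower in that contrast. With VE replicate 2 left out the 10 became 5, and with VE+N replicate 1 left out 6. The promoters of 2 members below both held the core letters of the sterol element, TCACCCCA, and are shown with those letters in capitals.
Hmgcs1, chr13:119690171-119690350, plus strand: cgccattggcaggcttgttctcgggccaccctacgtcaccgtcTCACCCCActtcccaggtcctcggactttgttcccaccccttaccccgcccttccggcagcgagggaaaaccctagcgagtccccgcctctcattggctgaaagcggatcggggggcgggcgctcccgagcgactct
Srebf2, chr15:82147089-82147268, plus strand: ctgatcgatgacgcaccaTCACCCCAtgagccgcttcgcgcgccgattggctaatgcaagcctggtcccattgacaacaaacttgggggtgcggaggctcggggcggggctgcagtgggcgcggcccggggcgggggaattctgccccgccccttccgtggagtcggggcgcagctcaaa

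Each is the 180 bases before the start, from RefSeq on GRCm38.p6. On either strand of the window, 2 of the 16 sterol genes with one held these letters, both below both lines (2 of 9, and 0 of the other 7), against 1.77% of all genes.

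Lss, the enzyme that closes the sterol ring, measured 6.25 and 6.26 in N, 6.12 and 6.38 in VE and 4.93 and 5.18 in VE+N. Srebf2 measured 9.35 and 9.25, 9.50 and 9.47, and 8.57 and 8.32. Insig1, which retains the SREBP complex in the endoplasmic reticulum and is itself a target, measured 10.54 and 10.53, 9.43 and 9.50, and 8.69 and 8.89. In Lss and Srebf2 the single-cadherin lines were alike, while Insig1 stepped down from N through VE. Cyp51, Fdps, Idi1, Hmgcs1, Msmo1, Nsdhl and Hsd17b7 had gaps between −1.11 and −0.60. Lss, Srebf2, Cyp51, Fdps and Idi1 kept their calls whichever array was left out, and the other 5 lost theirs at least with VE replicate 2 left out. Sqle was called lower against VE alone (−1.15), and Dhcr7 and Pmvk against N alone (−1.07 and −0.80).

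**Figure D4:**
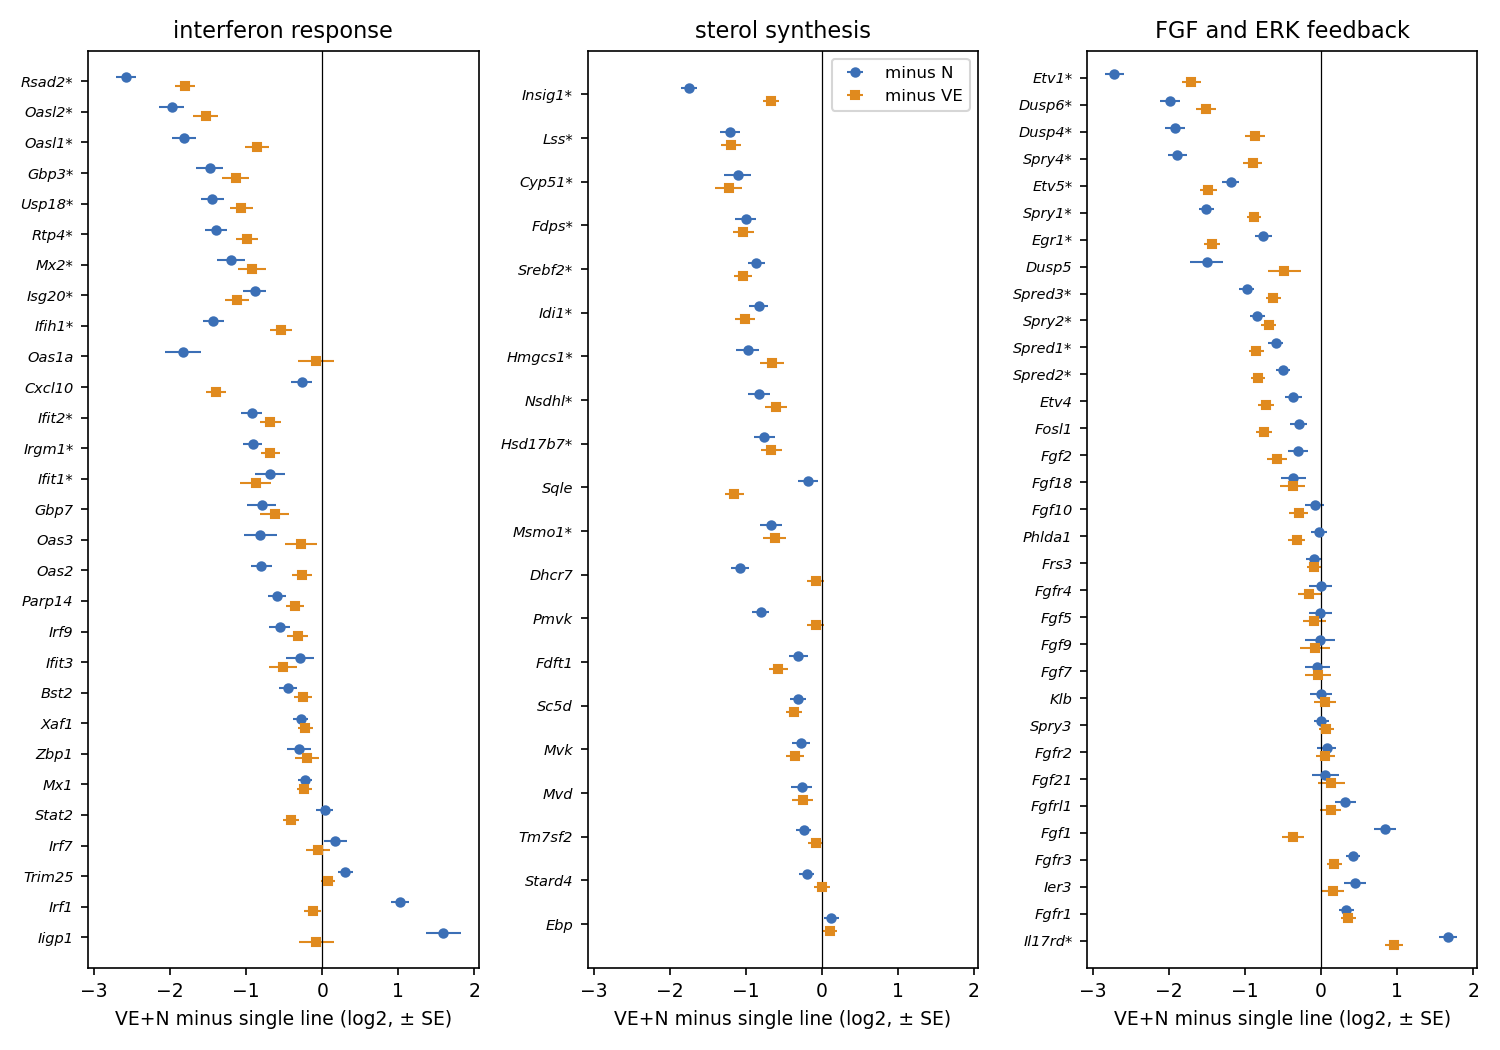
Points are the log2 differences of VE+N from N (blue circles) and from VE (orange squares) with their SE, for every measured gene of the interferon, sterol and FGF lists, and a star after the name marks genes outside the range. Most starred genes lie left of 0 against both lines, 12 in the interferon, 10 in the sterol and 11 in the FGF list, and Il17rd is the starred gene to the right.

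Some glycolysis genes were also below both lines. Of 31 glycolysis and hypoxia genes, 7 lay below both and 1 above, with a median contrast of −0.36, and 4 lay below with N replicate 2 or VE replicate 1 left out. Pgk1 measured 12.32 and 12.33 in N, 12.25 and 12.40 in VE and 11.63 and 11.72 in VE+N. Pfkp, Tpi1, Pgam1, Ldha, the glucose transporter gene Slc2a1 and the mitophagy gene Bnip3 were the others below. Ddit4, an inhibitor of mTORC1 that stress induces, was above both with a gap of 0.51, though not with either VE array or VE+N replicate 2 left out. Myc, listed as a Wnt target, measured 8.28 and 8.39, 8.76 and 8.81, and 7.50 and 7.33.

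Cell cycle genes were lower than the mean of the single-cadherin lines but mostly not outside their range. Of 39, 33 were called lower and 0 higher in the contrast with the mean (median −0.60), yet 6 lay below both. Their median difference was −0.10 from N and −1.06 from VE, so VE+N lay nearer to N than to VE. The 6 below both (Mcm3, Mcm4, Mcm6, Ccnb2, Tyms and Rrm2) became 0 with N replicate 1 left out, 1 with N replicate 2, VE replicate 1 or VE+N replicate 2 left out, and 2 with VE replicate 2 left out. In the list of cell cycle inhibitors and G1 cyclins, Cdkn1b and Ccng1 were above both and Cdkn2a and Cdkn2b below. Cdkn1b and Cdkn2b lost their calls with either VE array left out, and Cdkn1b in 4 of the 6 cases. Cdkn2a measured 7.63 and 7.56, 8.19 and 8.18, and 6.84 and 6.58.

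The remaining signalling lists had members on both sides. Of 31 FoxO factors and targets 4 lay above both (Cdkn1b, Sesn1, Klf2 and Txnip) and 3 below (Cdkn2b, Sesn3 and Gadd45a), and 1 and 1 with either VE array left out. Of 36 TGF-beta and BMP response genes 3 lay above and 3 below, with Id2 above N and VE by 0.83 and 1.32 and Id1 at differences of −0.74 and −0.90. Of 31 Wnt and beta-catenin target genes 1 lay above, the receptor gene Fzd6, and 5 below, including Cd44 and Myc. Of 29 YAP/TAZ genes 1 lay above, the kinase gene Lats2, and 4 below, Ccn1, Tead1, Axl and F3. The 3 TGF-beta and BMP genes below both, Id1, Bmp2 and Inhba, became 0 with VE+N replicate 2 left out and 1 with N replicate 1 left out. The 5 Wnt targets below became 2 with N replicate 2 left out. With median centring the YAP/TAZ list had 4 above and 4 below, and Lats2 lost its call with either VE array or VE+N replicate 2 left out.

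Of 28 unfolded protein and amino acid stress genes 2 lay above both (Sesn2 and Dnajb9) and 4 below (Chac1, Atf3, Edem1 and Sdf2l1). Chac1 alone among these 6 kept its call whichever array was left out, the count below both was 1 with either VE array left out, and it was 2 with median centring and 7 with quantile normalization repeated. Of 32 inflammation genes 1 lay above (3.1%, against 3% of all genes), the alarmin gene Il33. Below both lay 2 (6.25%, against 2.65%), Vcam1 and the monocyte chemokine gene Ccl2. Il33 lost its call with either VE array or VE+N replicate 2 left out, and with median centring 3 members lay above. Ccl2 measured 7.85 and 8.18 in N, 7.40 and 7.06 in VE and 5.38 and 5.63 in VE+N. Of 34 potassium channel genes 2 lay below both (5.88%, against 2.65% of all genes), Kcnj2 and Kcne3. Of 26 genes of retinoid, creatine and urea handling 3 lay above (Rbp2, Slc14a1 and Rarb) and 1 below, the polyamine enzyme gene Odc1. Of 23 haemostasis and vessel stability genes 3 lay above (Vwf, Ptprb and the protein S gene Pros1) and 2 below, F3 and the Tie2 ligand gene Angpt1, and Pros1 lost its call in 5 of the 6 cases with an array left out. Of 17 cell cycle inhibitors and G1 cyclins, 2 lay above and 2 below.

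Most markers of cells other than endothelium and mesenchyme were dim, with Cd68, Kit, Nes and Nefl among the exceptions. Of 18 haematopoietic markers 2 lay below both (11.1%, against 2.65% of all genes), Cd68 and Kit, and of 16 neural markers 3 (18.8%), Ncam1, Map2 and Nes. Cd68, a lysosomal glycoprotein used as a macrophage marker, measured 11.55 and 11.56 in N, 10.19 and 9.80 in VE and 8.62 and 8.74 in VE+N. Kit, also made by haemogenic endothelium, measured 9.73 and 9.76 in N, 5.92 and 5.97 in VE and 5.07 and 5.19 in VE+N. Of 20 muscle markers 1 lay below (Tnnt2, 5% against 2.65% of all genes). Of 14 endoderm and liver markers 1 lay above (Gata4, 7.14% against 3%), and of 15 pluripotency and 16 epithelial markers 0 lay outside. On the 6 arrays the median signal of these 6 lists ran from 3.94 to 4.93, under the median gene of every line. The summed linear signal of the haematopoietic list was 4217 to 4239 on the N arrays, 1372 to 1649 on the VE arrays and 797 to 811 on the VE+N arrays, most of it from Cd68 in N, and the defining markers Ptprc and Adgre1 were far under the median gene in every line (line means of 2.85, 2.54 and 2.83 for Ptprc in N, VE and VE+N). That of the neural list was 1869 to 1917, 1081 to 1141 and 920 to 976. Nes lost its call whichever array was left out, Map2 in 4 of the 6 cases, and Gata4 with either VE array or VE+N replicate 2 left out. The part of such cells in the results was not tested.

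Position on the chromosomes was uneven for the genes above both. Of the 939 genes on chromosome 10, 86 lay above both (9.16%), against 2.70% of the 18997 other genes, and they made up 14.4% of all genes above both and 9 of the 91 over 2-fold. The next chromosomes were 14 with 5.70%, 19 with 4.42% and 8 with 4.06%. Below both, chromosome 10 held 1.60% of its genes. Among the brighter genes of chromosome 10 (mean at or over the median of all genes) the median difference was 0.37 from N and 0.27 from VE, against −0.004 and 0.046 elsewhere.

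Along that chromosome, its brighter genes were divided by position into 10 blocks of 49 or 50 genes. The first 3 blocks had medians of −0.15 to −0.10 against N and 0.31 to 0.50 against VE. The other 7 blocks had medians of 0.35 to 0.75 against N and 0.18 to 0.29 against VE. The shift thus ran along the whole chromosome against VE and from the fourth block onward against N. Of the genes described above, Ptprb, Itga7, Btbd11, Igf1, Ddit4 and Sesn1 (above both) and Col6a1, Col6a2, Dcn, Dusp6 and Lss (below both) are on chromosome 10. With its genes left out before the fit and the adjustment, 505 genes lay above both and 497 below. The part of this shift in the genes above both was not tested beyond that count.

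**Figure D5:**
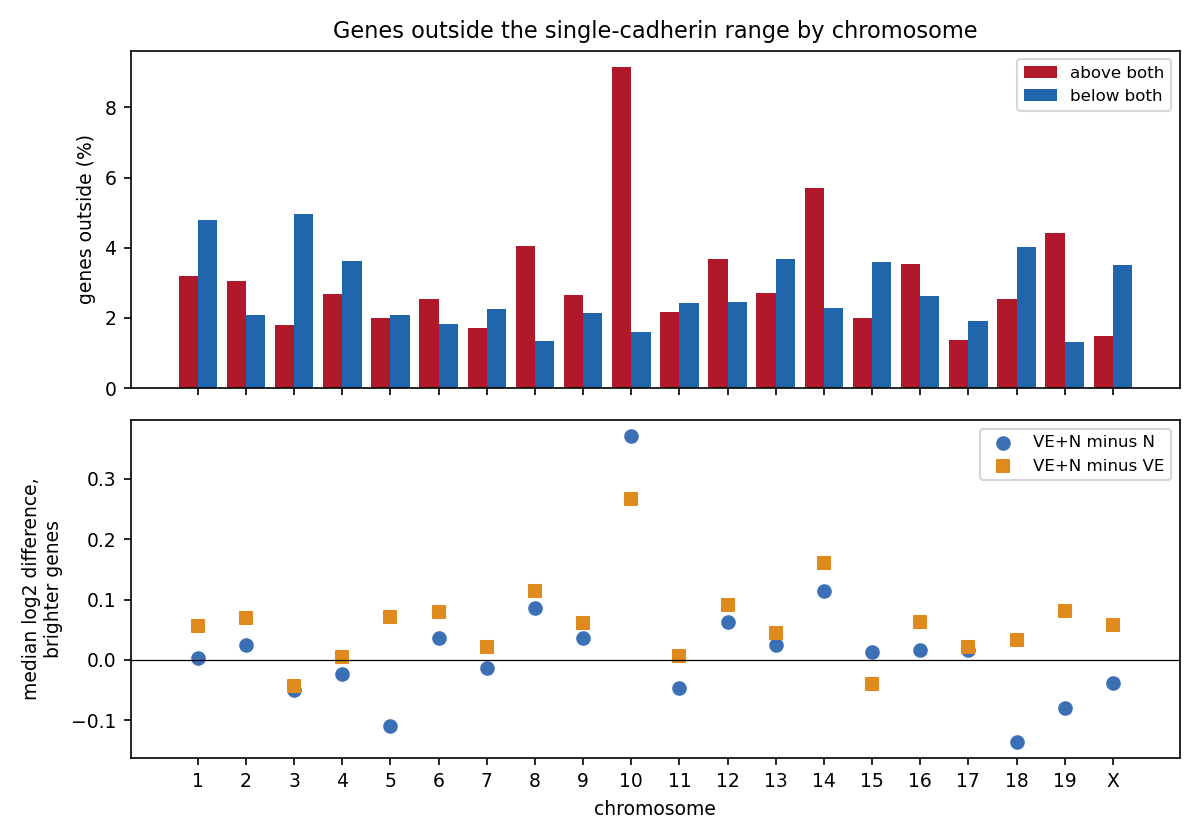
The upper bars give the percent of genes on each chromosome that lay above both (red) or below both (blue) single-cadherin lines, and the lower points give the median log2 difference of VE+N from N and from VE over the brighter genes of each chromosome. Chromosome 10 has the tallest red bar, 9.16%, and the highest medians against N and against VE.

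At the threshold, Pex14, Ifit1 and Ifih1 were the last genes inside, with larger adjusted p-values of 0.0495, 0.0496 and 0.0499, and Septin4, Phf13 and Krtcap2 the first not to pass, the latter 2 at 0.0501 and 0.0505. Septin4, with differences of −0.49 from N and −0.41 from VE, was as far from both lines as Pex14 (−0.50 and −0.36), so membership near the threshold is a matter of the spread between arrays.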

How the data were processed

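RNA of 3 lines was hybridised on 6 Affymetrix Mouse Gene 1.0 ST arrays, grouped by the line in their titles. Per the submitters' processing notes, the authors ran RMA in Partek 6.3, and the deposited values are on a log2 scale. That they are log2 was read from their range. The design text names analysis of variance (p 0.05, fold over 2) as the original test. Precision is limited by the number of arrays.

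Of 35556 probe sets, 21789 carried 1 symbol, 12146 none and 1621 several. Symbols came from the platform annotation, updated through RefSeq by Entrez identifier (21698) or accession (3) or kept (88). For 1001 genes with several probe sets the brightest was used, leaving 19936 genes, unfiltered. Line means were fitted with limma 3.58.1 in R 4.3.3 over all 6 arrays (3 residual and 4.89 prior degrees of freedom), with Benjamini-Hochberg adjustment separately for each contrast. Both single-line tests share the VE+N arrays. The code was tested on simulated data in which N and VE had equal means, unlike these data. That test checks the code and does not bear on the calls reported.

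The genes described, the 37 gene lists (951 members, 902 measured) and the tests were chosen with earlier results of these data known. Named genes are Cdh2, Cdh5, the 15 largest gaps on each side, up to 5 list members outside the range by gap, 3 genes on each side of the threshold, and genes stated to be chosen later. Further list members are named where a count is itemised or a list's defining members are given. Predicted genes, clones and small RNAs were not ranked. Alternatives were a replicate block, array weights, a trended robust prior, median centring, repeated quantile normalization, removal of the dimmest 25% or 50% of genes, the mean over probe sets, analysis of variance, treat, joint adjustment of both contrasts, each array left out, and separation without a test. Leaving out chromosome 10 was added after its counts were seen.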

Additional observations from a re-analysis of the deposited data

Results flagged for a closer look

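Probe sets without a single gene symbol were left out of the gene tests. They were read from a second fit over all 35556 probe sets together, with the same rule and with adjustment over all of them. Signals outside the range of both single-cadherin lines appeared there too. Of 12146 probe sets with no symbol, VE+N lay above both lines in 36 (0.296%) and below both in 26 (0.214%), with 11 and 11 over 2-fold. Of 1621 probe sets with several symbols, 10 lay above both (0.617%) and 8 below (0.494%), with 5 and 3 over 2-fold. These shares are below those of the named genes, 3% and 2.65%. The latter come from the fit and adjustment over 19936 genes, so the shares are not matched.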

How the results depend on the processing

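Under 18 alternatives, 208 genes outside the range (members of lists and those named) gave 3707 values, of which 3010 kept their direction and side of the threshold, 697 lost the call and 0 changed sign. The 30 largest gaps lost a call only in the analysis of variance with Benjamini-Hochberg (9 genes). Deviations matched by replicate number had correlations of −0.005 (N and VE), 0.123 (N and VE+N) and 0.0689 (VE and VE+N). Whether arrays with the same number share a batch was not tested. With the replicate number as a block, 609 genes lay above both and 522 below. Genes above both numbered 943 with a trended robust prior and 949 without the dimmest 50% of genes. Analysis of variance with Benjamini-Hochberg gave 1343 genes in the contrast, 93 above and 103 below both (30 and 38 over 2-fold), 869 with N outside and 136 with VE outside. Unadjusted it gave 1283, 966, 2923 and 1467 for VE+N above, VE+N below, N outside and VE outside. Treat against 1.5-fold gave 487 in the contrast, 60 above (60 over 2-fold), 83 below, 361 and 124, and Cdh2 lost its calls, at −0.97 from N (adjusted p = 0.056) and 0.83 from VE (adjusted p = 0.626). Separation without a test gave 3249 above and 2470 below. The Cdh5 contrast, never called, changed sign with median centring (0.027) and without N replicate 2 (0.0025), VE replicate 1 (0.0485) or VE+N replicate 1 (0.0524). With each array left out in turn, where a lone array is assumed to vary like the others, counts ran from 2098 to 3188 for the contrast, 225 to 711 above, 293 to 506 below, 1055 to 1835 for N outside and 426 to 735 for VE outside, and the Cdh5 contrast from −0.0653 to 0.0524. Leaving out chromosome 10, chosen after its counts were seen, gave 505 above and 497 below. The causes were not tested.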

Other observations

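Genes of the aryl hydrocarbon receptor system, which senses planar aromatic ligands, stood on both sides of the single-cadherin range and were picked out after their values were seen. The receptor gene Ahr measured 8.69 and 8.65 in N, 9.66 and 9.65 in VE and 11.01 and 11.08 in VE+N. Its repressor gene Ahrr measured 4.45 and 4.40, 7.22 and 7.14, and 8.43 and 8.69, and the target Tiparp 7.54 and 7.59, 8.95 and 8.98, and 9.98 and 10.32. All 3 rose in steps from N through VE to VE+N. Cyp1b1, an oxidase that is also a target, went the other way, at 7.95 and 8.07, 7.20 and 7.48, and 6.10 and 6.01. Cyp1a1 was dim and alike in all lines, with a contrast of −0.14 (adjusted p = 0.39), the partner gene Arnt had one of 0.18 (adjusted p = 0.278), and Nqo1 was lower than in N only.

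Several genes in no list also lay outside and were chosen after their values were seen. Nts, the gene of the peptide neurotensin, measured 9.36 and 9.41 in N, 8.17 and 7.93 in VE and 11.21 and 11.18 in VE+N. The water channel gene Aqp1 had the same order, at 8.09 and 8.08, 7.13 and 7.44, and 9.61 and 9.21. Ackr3, a scavenging receptor for the product of Cxcl12, measured 5.39 on both N arrays, 5.68 and 5.56 in VE, and 7.05 and 7.60 in VE+N, while Cxcl12 itself was below both at 5.40 and 5.35 in VE+N. The fatty acid receptor gene Cd36 measured 6.95 and 7.01, 5.72 and 5.18, and 4.02 and 3.69, and the purine receptor gene P2ry1 7.23 and 7.01, 7.19 and 7.38, and 5.77 and 5.80.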
